A study of Caenorhabditis elegans with 5 samples.

Results

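The 10 genes described here encode lysozymes of the nematode Caenorhabditis elegans: lys-1 to lys-8, lys-10 and ilys-3. They were taken by symbol from the count tables, where each has 1 row, and make up 10 of 45251 genes. RNA was extracted from whole wild-type N2 worms, the laboratory reference strain, whose stage the labels give as L4 (the last larval stage) to adult. The worms had been kept at 20 °C on agar plates with Escherichia coli OP50, the usual food bacterium. The exposed group spent 24 h with bisphenol TMC (BPTMC, of the bisphenol class) in the agar at 1 mM and gave 3 libraries, while the control group spent 24 h on dimethyl sulfoxide (DMSO) plates, for which the labels also give 1 mM, and gave 2 libraries.

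Lysozymes cut the peptidoglycan of bacterial cell walls. A worm that feeds on bacteria uses them both to digest its food and to limit infection, and most of the studied members are made in the intestine, some also in the pharynx, the feeding organ. C. elegans has a protist-type family, the lys genes, and an invertebrate-type family, the ilys genes. Several lys genes are induced by pathogens and are used as reporters of immune signalling through the kinase PMK-1, the FOXO factor DAF-16 or the TGF-beta ligand DBL-1. The question put to the data was which lysozyme transcripts stood higher and which lower after BPTMC, and how firmly 5 libraries show it.

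On WBcel235 as annotated by Ensembl, 6 of the 10 genes lie in 2 clusters. On chromosome V, lys-1 (WBGene00003090, 10277904 to 10279056, plus strand), lys-2 (WBGene00003091, 10280307 to 10281474, minus strand) and lys-3 (WBGene00003092, 10282100 to 10283544, minus strand) are separated by 1250 and 625 bases. On chromosome IV, lys-4 (WBGene00003093, 11621429 to 11623174), lys-5 (WBGene00003094, 11624252 to 11625582) and lys-6 (WBGene00003095, 11626910 to 11627947) lie in a row on the minus strand with gaps of 1077 and 1327 bases. The others stand apart from the rest of the 10. lys-7 (WBGene00003096) lies on chromosome V from 3481432 to 3482600 and lys-8 (WBGene00003097) on chromosome II from 5586178 to 5587651. On chromosome IV, lys-10 (WBGene00003099) lies from 8332826 to 8333518 and ilys-3 (WBGene00016670) from 2464456 to 2465443. ilys-3 is followed on its strand by the lysozyme genes ilys-2 and ilys-1, outside the 10, with gaps of 2234 and 1534 bases. All 10 are protein-coding with 1 annotated transcript each. The proteins of lys-1, lys-2, lys-3, lys-7 and lys-8 have 279 to 301 residues, those of the lys-4 to lys-6 cluster 214 or 215, that of lys-10 230 and that of ilys-3 139.

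The libraries held 16531114 to 24362712 counts, and 14238 genes passed the filter on low counts and were tested. Nothing in the labels ties replicates to separate cultures, so p-values measure the spread between these libraries, which may be technical. On the first principal component (54.9% of the variance) BPTMC replicate 1 stood apart at 108, and BPTMC replicate 3 lay at 26.3. BPTMC replicate 2, at -27.4, lay close to DMSO replicate 1, at -19.1, while DMSO replicate 2 lay apart from both, at -87.9.

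Levels are given as CPM, the reads of a gene relative to a library's total reads after TMM scaling, with standard deviations (SD) over libraries. In the DMSO libraries lys-4 was the most abundant of the 10 in reads, and in the BPTMC libraries lys-1, lys-7 and lys-2 had the highest means. No lysozyme gene was called over all genes at a Benjamini-Hochberg adjusted p under 0.05 in edgeR's quasi-likelihood test, where 0.105% of all tested genes were called higher and 0% lower. Before adjustment, 6 of the 10 were higher with p under 0.05, as were 7% of all tested genes, and 1 was lower, as were 0.4%. DESeq2 called 4 higher (lys-1, lys-2, lys-3 and lys-7; 1.67% of all tested genes) and 0 lower (0.0211%), and limma-voom called 0 in either direction (0.00702% higher and 0% lower). In 5 of the 10 the lowest BPTMC library lay above the highest DMSO library, as in 13.4% of all tested genes, and in 1 all BPTMC libraries lay below both DMSO libraries, as in 9.96%. The median log2 fold change of the 10 was 2.11, against -0.09 over all tested genes. One of them, lys-3, passed the filter only through BPTMC libraries, so a difference was built into its inclusion. Without it the median was 2.0, with 5 of 9 higher at an unadjusted p under 0.05. DESeq2 then called 3 of the 9, and in 4 of the 9 all BPTMC libraries lay above both DMSO libraries.

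**Figure D1:**
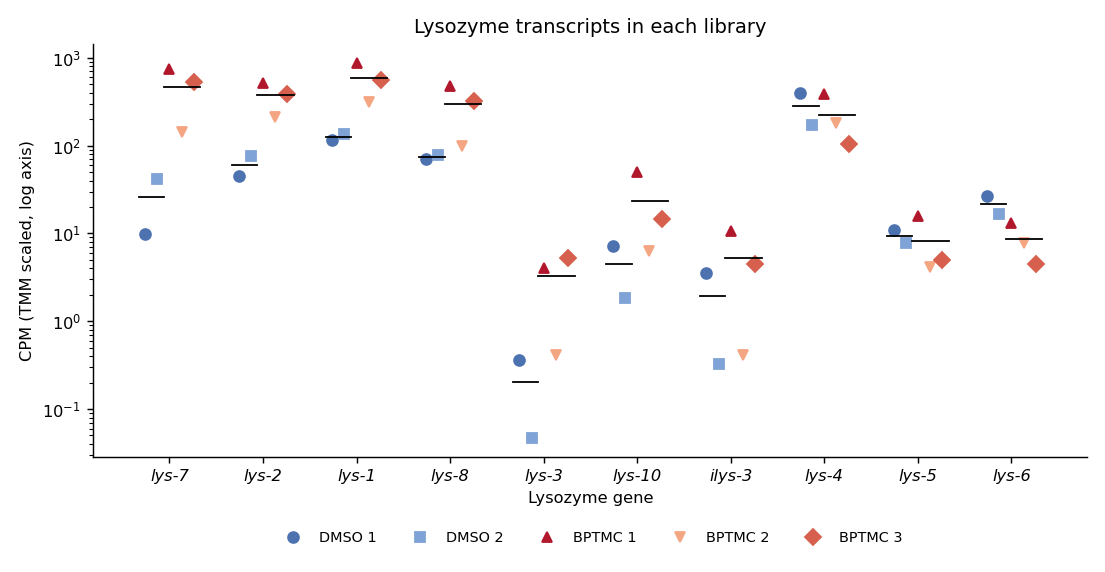
CPM (TMM scaled, logarithmic axis) of the 10 lysozyme genes in each of the 5 libraries; symbols mark libraries and black lines the group means. The BPTMC symbols of lys-7, lys-2, lys-1 and lys-8 all stand above both DMSO symbols, whereas those of lys-4 and lys-5 are mixed with them and those of lys-6 lie below.

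lys-7, a gene under DAF-16 control whose product takes part in defence against several bacteria, showed the largest difference of the 10. Its level was 9.76 and 42.1 CPM with DMSO replicates 1 and 2, and 742, 143 and 526 CPM in BPTMC replicates 1, 2 and 3. The groups did not overlap, and the lowest BPTMC library was 3.41 times the higher DMSO library, although the DMSO libraries themselves differed 4.31-fold and the BPTMC libraries 5.17-fold. The log2 fold change was 4.18 ± 0.90 (SE), an 18.2-fold difference, with an edgeR adjusted p = 0.222 over all genes and an unadjusted p = 0.00150 that ranked 95 among the tested genes. DESeq2 gave an adjusted p = 1.24e-05 and limma-voom an adjusted p = 0.474, so the call depends on the tool. In expression rank lys-7 moved from the 66.4th percentile of tested genes in DMSO to the 98.4th in BPTMC.

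lys-1 and lys-2, neighbours that are transcribed towards each other and are linked to responses to bacterial pathogens, followed the same order of libraries as lys-7. lys-1 stood at 117 and 136 CPM with DMSO and at 878, 314 and 565 CPM in BPTMC replicates 1, 2 and 3. lys-2 stood at 44.5 and 76.7 CPM with DMSO and at 512, 214 and 390 CPM with BPTMC. For both genes all BPTMC libraries were above both DMSO libraries, replicate 1 highest and replicate 2 lowest. lys-1 had a log2 fold change of 2.21 ± 0.50 (edgeR adjusted p = 0.254 over all genes). lys-2 had one of 2.62 ± 0.51 (edgeR adjusted p = 0.191 over all genes) and the smallest p of the 10, which ranked 59 among the tested genes. DESeq2 gave adjusted p = 0.00380 and 0.000200, and limma-voom adjusted p = 0.574 and 0.423.

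lys-3, the third gene of that cluster, was close to silent in DMSO. It had 8 and 1 reads in DMSO replicates 1 and 2 and 82, 8 and 104 reads in BPTMC replicates 1, 2 and 3, or 0.358 and 0.0470 CPM against 4.01, 0.408 and 5.29 CPM. BPTMC replicate 2 was thus within reach of DMSO replicate 1, at 1.14 times its level, and the separation rests on 8 reads in each of these libraries. The log2 fold change was 3.94 ± 1.21 (edgeR adjusted p = 0.478, DESeq2 adjusted p = 0.0311, limma-voom adjusted p = 0.822). Without BPTMC replicate 1 or without BPTMC replicate 3, lys-3 no longer passed the filter on low counts.

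lys-8, expressed in the intestine and regulated by DBL-1 signalling, stood at 71.1 and 77.7 CPM with DMSO and at 475, 97.7 and 323 CPM in BPTMC replicates 1, 2 and 3. The DMSO libraries were close together, and BPTMC replicate 2 was 1.26 times the higher of them, far below the other two BPTMC libraries. The log2 fold change was 2.0 ± 0.63, with an edgeR adjusted p = 0.496, a DESeq2 adjusted p = 0.0917 and a limma-voom adjusted p = 0.822. The last 38 bases of lys-8 overlap C17G10.13 on the opposite strand, and the strand setting of the counting is not given in the sources used here, so reads there cannot be assigned with certainty. C17G10.13 had 3031 and 5243 reads in DMSO and 2995, 2980 and 5877 in BPTMC, which does not follow the order of lys-8.

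lys-10 and ilys-3 were variable within both groups. lys-10, a lys gene with a single exon, stood at 7.21 and 1.83 CPM with DMSO and at 49.6, 6.33 and 14.5 CPM in BPTMC replicates 1, 2 and 3. BPTMC replicate 2 lay between the DMSO libraries, so the groups overlapped; the log2 fold change was 2.37 ± 0.94 (edgeR adjusted p = 0.624, DESeq2 adjusted p = 0.195). ilys-3, an invertebrate-type lysozyme made in the pharynx and intestine, stood at 3.58 and 0.329 CPM with DMSO and at 10.8, 0.408 and 4.47 CPM with BPTMC. Its DMSO libraries differed 10.9-fold and its BPTMC libraries 26.3-fold, more than the difference between the groups (log2 fold change 1.41 ± 1.20, edgeR adjusted p = 0.834).

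The 3 genes of the cluster on chromosome IV had log2 fold changes from -1.34 to -0.17, against 2.0 to 4.18 for lys-1, lys-2, lys-3, lys-7 and lys-8. lys-4 stood at 398 and 172 CPM with DMSO and at 389, 181 and 103 CPM in BPTMC replicates 1, 2 and 3, with full overlap (log2 fold change -0.35 ± 0.59, edgeR adjusted p = 0.846). lys-5 stood at 10.9 and 7.71 CPM with DMSO and at 15.6, 4.19 and 4.93 CPM with BPTMC, also with overlap (log2 fold change -0.17 ± 0.62, edgeR adjusted p = 0.913). In lys-4 and lys-5 the sign of the fold change depends on single libraries: for lys-4 the value became 0.37 when DMSO replicate 1 was left out and 0.13 when BPTMC replicate 3 was. For lys-5 it became 0.08 when DMSO replicate 1 was left out, 0.25 for BPTMC replicate 2 and 0.24 for BPTMC replicate 3.

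lys-6 was the one gene of the 10 that stood lower in every BPTMC library. It had 26.5 and 16.8 CPM with DMSO and 13.3, 7.76 and 4.53 CPM in BPTMC replicates 1, 2 and 3, so that the highest BPTMC library lay below the lower DMSO library. The log2 fold change was -1.34 ± 0.51, or 0.395 of the DMSO level, with an unadjusted p = 0.0300 and an adjusted p = 0.618 by edgeR, a DESeq2 adjusted p = 0.324 and a limma-voom adjusted p = 0.822. Its direction was kept without each library in turn, from -1.77 to -0.92, but its unadjusted edgeR p exceeded 0.05 when DMSO replicate 1 or either of BPTMC replicates 2 and 3 was left out. The gene next to lys-6 outside the cluster, F58B3.4, on the same strand, stood at 169 CPM with DMSO and 132 CPM with BPTMC.

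**Figure D2:**
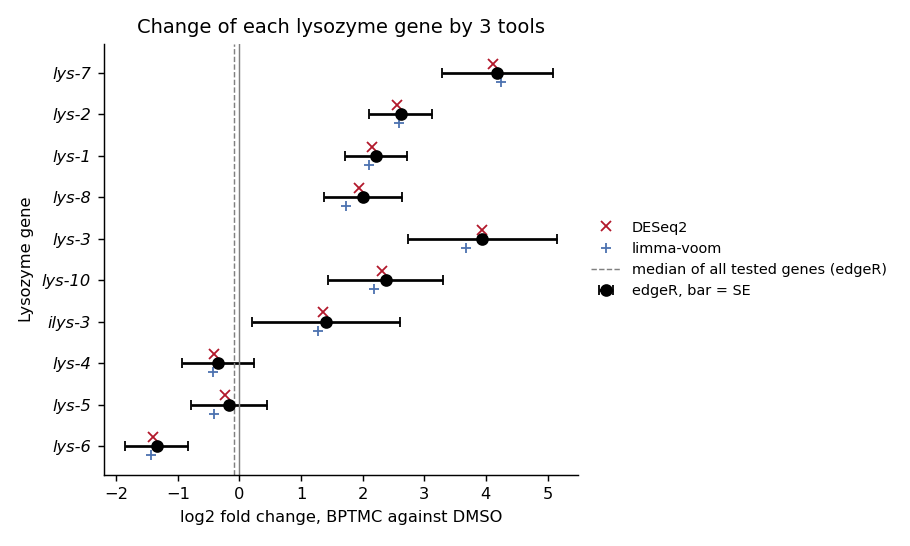
Log2 fold change of each lysozyme gene, BPTMC (n = 3) against DMSO (n = 2), by edgeR with its SE as a bar, and by DESeq2 and limma-voom; the dashed line is the edgeR median over all tested genes, -0.09. The 3 tools place each gene on the same side of 0, from 4.18 for lys-7 to -1.34 for lys-6 by edgeR.

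Ratios of reads taken within each library are altered by no scaling between libraries. Between the clusters, the ratio of lys-1 to lys-4 reads was 0.294 and 0.788 in DMSO and 2.26, 1.74 and 5.48 in BPTMC replicates 1, 2 and 3. That of lys-7, which stands alone, to lys-4 was 0.0246 and 0.244 in DMSO and 1.91, 0.794 and 5.10 in BPTMC. In both ratios all BPTMC libraries lay above both DMSO libraries. Each sets a gene that stood higher in every BPTMC library over lys-4, which did not. Their separation therefore restates the levels given above and is no separate evidence. Within the cluster on chromosome IV the ratio of lys-6 to lys-4 was lower in BPTMC, at 0.0342, 0.0429 and 0.0439, than in DMSO, at 0.0666 and 0.0974. The ratio of lys-2 to lys-1 spanned a narrower range, but it too was higher in every BPTMC library, at 0.381 and 0.564 in DMSO and 0.584, 0.680 and 0.690 in BPTMC. That of lys-8 to lys-1 was lower in every BPTMC library, at 0.609 and 0.572 in DMSO and 0.541, 0.311 and 0.571 in BPTMC, the last close to DMSO replicate 2. An exact two-sided permutation test of 3 libraries against 2 cannot give a p below 0.1, so no single ratio can pass a threshold of 0.05.

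QuantSeq libraries take reads from the 3' end of a transcript, so reads do not scale with transcript length, but shares of reads between genes still depend on how each 3' end is annotated. Of the 10 genes, lys-10 alone has no untranslated stretch annotated at its 3' end in Ensembl. Whether reads of lys-10 were missed for that reason was not tested. Summed over the 10 genes the level was 688 and 531 CPM with DMSO and 3088, 969 and 1940 CPM in BPTMC replicates 1, 2 and 3. Every BPTMC library was above both DMSO libraries, with a mean of 610 ± 111 CPM with DMSO (SD, n = 2) and 1999 ± 1061 CPM with BPTMC (SD, n = 3). With the 6 further lysozyme genes added, the sum over all 16 was 1748 and 1257 CPM with DMSO and 4742, 1595 and 2659 CPM with BPTMC, and the groups overlapped. Of the reads of the 10 genes alone, the share from lys-4 was 57.8% and 32.4% in DMSO and 12.6%, 18.7% and 5.31% in BPTMC. The share from lys-7 was 1.42% and 7.92% in DMSO and 24.0%, 14.8% and 27.1% in BPTMC. lys-8 kept a like share throughout, from 10.1% to 16.6%, and lys-3 never exceeded 0.273%.

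**Figure D3:**
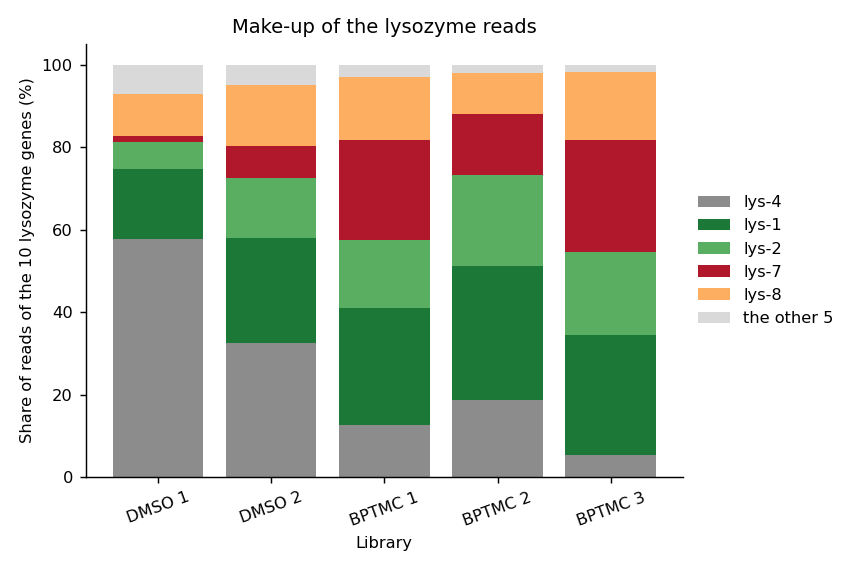
Share of the reads of the 10 lysozyme genes taken by each gene, per library, in percent; the 5 genes with few reads are drawn together. lys-4 takes 57.8% and 32.4% in the DMSO libraries and at most 18.7% in a BPTMC library, while lys-7 goes from at most 7.92% to at least 14.8%.

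Most members ranked the libraries alike. BPTMC replicate 1 was the highest library for 7 of the 10 genes and the highest of the BPTMC libraries for 9, and BPTMC replicate 2 was the lowest of the BPTMC libraries for 8. lys-1, lys-2, lys-7 and lys-8 shared one full order, BPTMC replicates 1, 3 and 2 followed by DMSO replicates 2 and 1. Taking each gene's log2 CPM around its own mean, the root mean square difference over the 5 libraries was smallest between lys-1 and lys-2 (0.31), lys-1 and lys-8 (0.36) and lys-4 and lys-5 (0.41). The largest was between lys-6 and lys-7 (3.03). By this measure of likeness the genes of a cluster were close for lys-4, lys-5 and lys-6. In contrast, lys-3 was farther from its neighbours lys-1 (1.13) and lys-2 (1.16) than from lys-10 on another chromosome (0.93). The distances of lys-3 are uncertain, as it had only 8 and 1 reads in DMSO replicates 1 and 2 and 8 in BPTMC replicate 2.

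Markers of other tissues differed between the same libraries. The summed level of 15 sperm genes, mostly major sperm proteins, was 40.6 and 19.7 CPM with DMSO and 190, 23.7 and 126 CPM in BPTMC replicates 1, 2 and 3. Within the BPTMC group the libraries thus ranked as they did for lys-7. The groups overlapped, and 0 of the 15 genes was at 0 in every library. The ratio of group means was 3.76, against 3.28 for the 10 lysozyme genes. Gene by gene, all 14 tested sperm genes were positive, with a median log2 fold change of 1.92. Their unadjusted edgeR p was under 0.05 for 6, against 7% of all tested genes. In 0 of them did the groups separate, and edgeR, DESeq2 and limma-voom called 0. Most of these genes belong to 1 family, the major sperm proteins, and may not be separate observations. Whether they share reads was not tested. The 10 oocyte and embryo genes summed to 2789 and 6726 CPM with DMSO and to 1266, 4680 and 5642 CPM with BPTMC, lowest in the library with the highest lysozyme levels. The 10 intestinal markers, from the tissue in which most lysozymes are made, summed to 635 and 525 CPM with DMSO and to 720, 721 and 590 CPM with BPTMC, with overlap and a ratio of group means of 1.17. That sum is weighted by act-5 and erm-1, the most abundant of them (log2 fold changes 0.07 and -0.16). Gene by gene, 8 of the 10 were positive with a median log2 fold change of 0.54. In 5 all BPTMC libraries lay above both DMSO libraries and in 1 below, against 13.4% and 9.96% of all tested genes. The unadjusted edgeR p was under 0.05 for 2 that were higher, elt-7 and elt-2, against 7% of all tested genes. Of the intestinal markers edgeR, DESeq2 and limma-voom called 0 over all genes. The 10 pharynx markers summed to 23.4 to 100 CPM with overlap between groups, 2 of them at 0 in every library, and the 8 body wall muscle genes to 1226 to 2952 CPM, also with overlap. The 10 adult cuticle and moult genes summed to 633 and 536 CPM with DMSO and to 427, 742 and 351 CPM with BPTMC, with overlap. That ratio of group means was 0.867, and col-19 had by far the most reads (log2 fold change -0.25). Gene by gene, 7 of the 9 tested were positive and 2 negative, with a median log2 fold change of 0.86. The part of all these markers in the lysozyme levels was not tested, and in whole worms more cells of a type and more RNA per cell cannot be told apart.

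**Figure D4:**
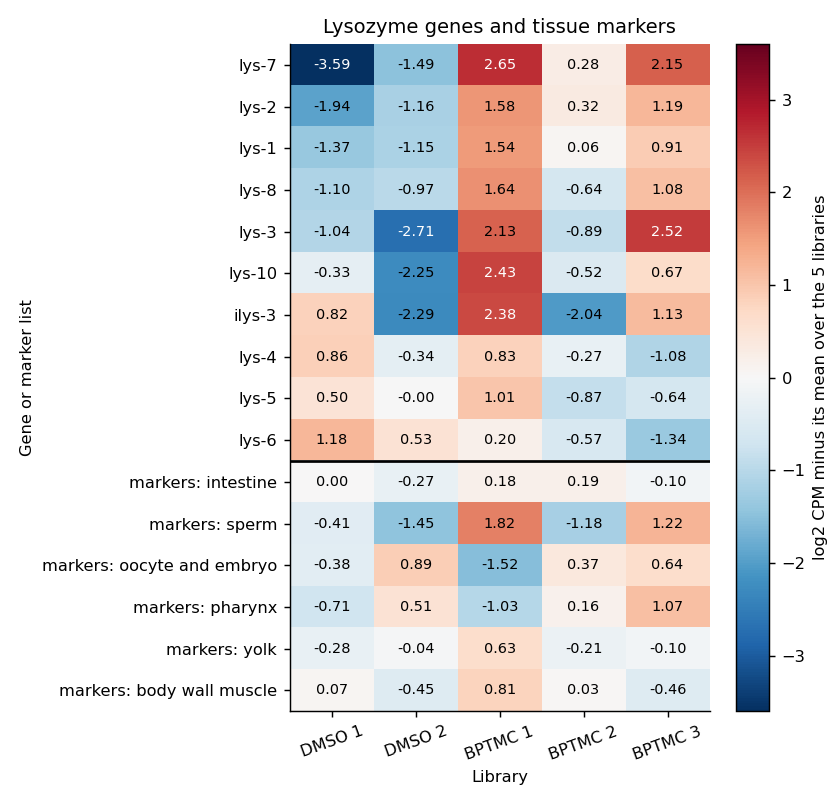
Log2 CPM of each lysozyme gene, and of the summed CPM of each marker list, minus its own mean over the 5 libraries (columns). The intestinal markers vary between -0.27 and 0.19, whereas lys-7 varies between -3.59 and 2.65 and the sperm markers between -1.45 and 1.82.

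Leaving out each library in turn kept the direction of lys-1, lys-2, lys-6, lys-7, lys-8, lys-10 and ilys-3, and of lys-3 where it passed the filter. The log2 fold change of lys-7 ran from 3.47 without DMSO replicate 1 to 5.64 without DMSO replicate 2. That of lys-2 ran from 2.26 to 3.10 and that of lys-1 from 1.89 to 2.58. The widest ranges were those of ilys-3, from 0.33 without BPTMC replicate 1 to 3.95 without DMSO replicate 1, of lys-3, from 3.17 to 5.92 where it passed the filter, and of lys-10, from 1.23 to 3.66 without the same libraries as for ilys-3. Where 1 DMSO library remained, its spread was taken to equal that of the BPTMC group.

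**Figure D5:**
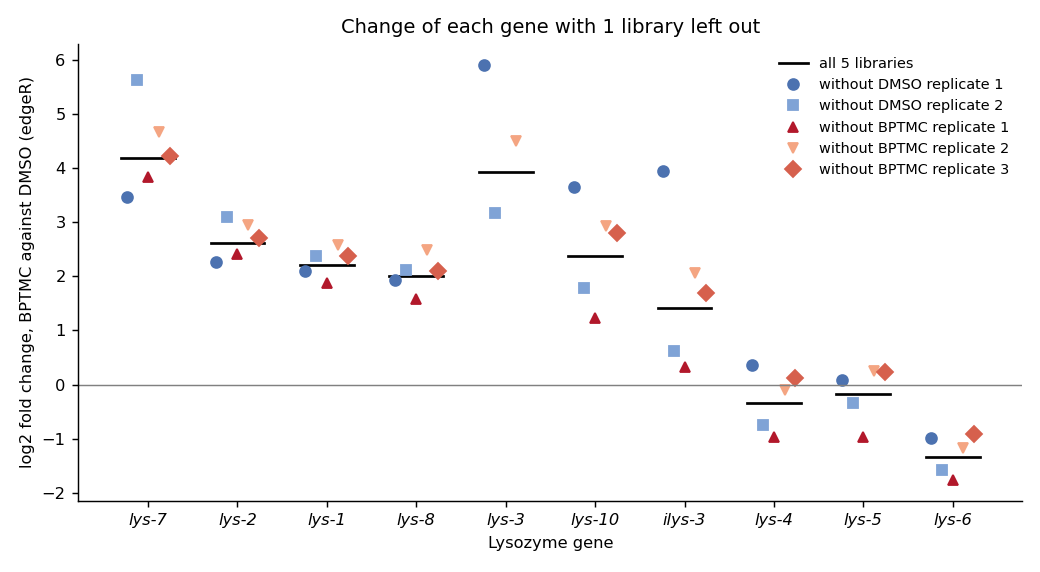
edgeR log2 fold change of each lysozyme gene with all 5 libraries (line) and with 1 library left out (symbols). lys-7, lys-2, lys-1 and lys-8 stay above 1.5 and lys-6 stays below -0.9, while lys-4 and lys-5 cross 0; lys-3 has no value without BPTMC replicate 1 or 3.

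The lysozyme genes outside the 10 were mostly low. Of 6 such genes, ilys-1, ilys-6 and lys-9 had at most 5 reads in a library and were not tested. ilys-5, an invertebrate-type gene on chromosome X, had more reads than any of the 10 in DMSO, at 1052 and 721 CPM, and stood at 1626, 620 and 702 CPM in BPTMC replicates 1, 2 and 3. Its groups overlapped, with a log2 fold change of 0.15 ± 0.49 (edgeR adjusted p = 0.908). ilys-2, which follows ilys-3 on the same strand, stood at 5.33 and 1.93 CPM with DMSO and at 16.6, 4.39 and 10.6 CPM with BPTMC (log2 fold change 1.54 ± 0.68, edgeR adjusted p = 0.686). ilys-4 had a log2 fold change of 1.60 ± 0.66 (edgeR adjusted p = 0.644), but it lies wholly within atic-1 on the opposite strand, a gene with 35212 reads or more in every library. None of the 3 tested was called by edgeR, DESeq2 or limma-voom. The unadjusted edgeR p was under 0.05 for 1 that was higher, ilys-4, against 7% of all tested genes.

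Among 30 genes that act in the signalling routes to lysozymes and other intestinal defence genes, edgeR, DESeq2 and limma-voom called 0 over all genes, and the unadjusted edgeR p was under 0.05 for 6 that were higher and 0 that were lower, against 7% and 0.4% of all tested genes. The median log2 fold change was 0.49, with 25 of 30 positive, against -0.09 and 6477 of 14238 over all tested genes. The smallest p-values belonged to sma-4, a SMAD protein of the DBL-1 pathway, zip-2, a transcription factor of the response to pathogens, fshr-1, a receptor required for pathogen resistance, and elt-7, an intestinal GATA factor. zip-2 stood at 27.4 and 16.9 CPM with DMSO and at 71.2, 27.9 and 62.6 CPM with BPTMC, so that the groups touched without overlap (log2 fold change 1.28 ± 0.51, edgeR adjusted p = 0.622). elt-7 had a log2 fold change of 1.48 ± 0.62 and sma-4 of 1.54 ± 0.59, with adjusted p = 0.659 and 0.617 by edgeR.

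The saposin-like proteins, which open bacterial membranes and work beside lysozymes in the gut, had members on both sides. Of 23 listed, 17 were tested. edgeR and limma-voom called 0 over all genes and DESeq2 called 1 higher, against 1.67% of all tested genes. The unadjusted edgeR p was under 0.05 for 3 that were higher and 1 that was lower, against 7% and 0.4% of all tested genes. Of the 3, spp-6 passed the filter only through BPTMC libraries, with 0 and 1 reads in DMSO and 40, 1 and 11 in BPTMC, so a difference was built into its inclusion. Another, spp-8, stood at 13.9 and 7.66 CPM with DMSO and at 85.1, 24.7 and 61.2 CPM with BPTMC (log2 fold change 2.40 ± 0.61, edgeR adjusted p = 0.320), and spp-18 had a log2 fold change of 2.19 ± 0.78. spp-4 stood lower, at 44.6 and 31.5 CPM with DMSO and at 11.3, 18.1 and 6.61 CPM with BPTMC, a log2 fold change of -1.66 ± 0.48 (edgeR adjusted p = 0.439). Of 13 digestive and lysosomal enzymes of the intestine, proteases and 1 nuclease, edgeR and limma-voom called 0. DESeq2 called 1 higher, against 1.67% of all tested genes. Before adjustment, the edgeR p was under 0.05 for 3 that were higher and 0 that were lower, against 7% and 0.4% of all tested genes. The 3 were the cathepsin B-like cpr-3 (log2 fold change 2.18 ± 0.56) and the aspartic proteases asp-5 (1.68 ± 0.59) and asp-6 (1.55 ± 0.55). Their adjusted p was 0.340, 0.568 and 0.574 by edgeR.

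Genes whose profile over the 5 libraries lay closest to a lysozyme were searched among 6992 genes with a mean of at least 10 CPM. The nearest to lys-7 was C14C6.5, at a root mean square difference of 0.14 on the log2 scale, with 9.40 CPM with DMSO and 152 CPM with BPTMC, followed at a distance by moc-1 (0.57) and C17H12.8 (0.60). The nearest to lys-2 was lipl-5, a lysosomal lipase (0.23), and the nearest to lys-1 were T28A11.2 (0.10) and T28A11.25 (0.10). lys-8 lay closest to pnp-1 (0.13) and lys-10 to ZC443.3 (0.18). For lys-6 the nearest gene, W08F4.21, was farther off (0.30). For lys-4 the nearest were gnrr-1 (0.09) and the ribosomal protein genes rpl-41.2 and rpl-41.1 (0.09), which have log2 fold changes near its own. Their mean levels were also close to each other, at 11070, 11430 and 11440 CPM with DMSO. T28A11.2 and T28A11.25 were likewise close, at 13.1 and 13.6 CPM with DMSO. Whether such genes share reads was not tested.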

How the data were processed

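Lexogen QuantSeq libraries were made from 500 ng of total RNA isolated in Trizol, per the labels' protocols. Bowtie2, bedtools and the build WBcel235 are named in the submitters' processing notes; for versions, annotation and strand the sources used here give nothing. The authors deposited raw read counts per gene symbol, 1 table per library. The 3 BPTMC libraries were set against the 2 DMSO libraries in R 4.3.3 with edgeR 4.0.16 (quasi-likelihood, TMM scaling, filterByExpr at a minimum count of 10), and p-values were adjusted by Benjamini-Hochberg over 14238 genes. The approximate SE is the size of the log2 fold change over the root of its F statistic. DESeq2 1.42.0, limma 3.58.1 (voom) and other scalings, filters and libraries were alternatives. The edgeR script was tested on simulated data. Library profiles are log2 CPM (prior count 2). Gene positions are from Ensembl release 115. The members and gene lists were chosen with earlier results of these data known. Named genes were the 10 members, up to 4 per further list with the smallest p, the 3 nearest profiles per member of at least 10 CPM, and overlapping genes. No sequences were used here.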

Additional observations from a re-analysis of the deposited data

How the results depend on the processing

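Of 14238 genes 15 were called higher and 0 lower. The 15 became 2 with total-count scaling, 65 without a filter, 3 with a filter of 5 CPM, 238 by DESeq2, 1 by limma-voom, 3 with legacy dispersions, 4 without rRNA genes and 2 at an adjusted p under 0.01. They ran from 0 (without BPTMC replicate 3) to 43 (without BPTMC replicate 1) with 1 library left out, with 33 and 6 without DMSO replicates 1 and 2. The 0 lower became 2 without a filter and 3 by DESeq2. The 6 lysozyme genes that were higher at an unadjusted p under 0.05 were 4 to 7 in every alternative. The 1 lower, lys-6, was 0 with the filter of 5 CPM and 0 to 1 with a library left out. The median of the lysozyme genes was 1.23 to 2.53 with a library left out. lys-7 passed an adjusted p under 0.05 without a filter (0.0403). lys-4 ran from -0.98 to 0.37 and lys-5 from -0.97 to 0.25 with a library left out; the cause was not tested. The median over all tested genes shifted from -0.09 to between -0.14 and 0.12.

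With the replicate number as a block, 1147 genes were called higher and 599 lower, and lys-4 turned to 0.018. The labels do not say what the number marks and only 2 pairs share one. Deviations from the group means in same-numbered libraries had correlations of 0.67 and 0.33 over genes. These are not separate observations, because the DMSO libraries deviate from their own mean by equal and opposite amounts. Under the block 6 lysozyme genes were called higher, as were 8.06% of all tested genes, and 7 were higher at an unadjusted p under 0.05, as were 15.4%. This fit leaves 1 residual degree of freedom. Counts as low as those of lys-3 in DMSO limit any fold change of that gene.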

Other observations

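Of 40 tested genes within 20 kb of a lysozyme gene, edgeR called 1 higher and 0 lower over all genes. The shares called over all tested genes were 0.105% and 0%. The unadjusted edgeR p was under 0.05 for 6 that were higher and 1 that was lower, against 7% and 0.4% of all tested genes. The median log2 fold change was -0.02, against -0.09. Among the 6, B0024.4 and linc-38 reached the filter level in no DMSO library and passed it only through BPTMC libraries, so a difference was built into their inclusion. The genes named here were chosen after their values were seen. B0024.4, the called gene, lies 13854 bases beyond lys-3 on the plus strand of chromosome V and had 9 and 2 reads in DMSO and 1116, 363 and 467 in BPTMC (log2 fold change 6.97, edgeR adjusted p = 0.0357). linc-38, a long intergenic RNA that starts 550 bases before lys-1 and runs the other way, had 5 and 0 reads in DMSO and 154, 10 and 41 in BPTMC replicates 1, 2 and 3, the library order of lys-1 within the BPTMC group (edgeR adjusted p = 0.439). Between lys-3 and B0024.4, B0024.3 had 9 and 11 reads in DMSO and 8, 15 and 8 in BPTMC. The collagen gene col-149, the 1 lower neighbour, stood at 14.6 and 1.74 CPM with DMSO and at 2.3, 1.89 and 1.22 CPM with BPTMC, so the groups overlapped and DMSO replicate 1 alone was high (edgeR adjusted p = 0.589). gst-33, a glutathione S-transferase 12869 bases from lys-7, had 34 and 12 reads in DMSO and 556, 91 and 593 in BPTMC (edgeR adjusted p = 0.222), whereas srbc-30 and srbc-33, the protein-coding genes on either side of lys-7, had 0 reads in all 5 libraries.

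The yolk protein genes, made in the intestine like most lysozymes, stood on both sides. vit-1 stood at 1407 and 972 CPM with DMSO and at 244, 498 and 87.5 CPM with BPTMC replicates 1, 2 and 3, and vit-3 at 1830 and 2278 CPM with DMSO and 696, 1190 and 303 CPM with BPTMC. In both, all BPTMC libraries lay below both DMSO libraries, while vit-2 was higher in each, at 9863, 3937 and 5328 CPM against 3075 and 3477 CPM. None of the 6 vit genes was called over all genes by edgeR, DESeq2 or limma-voom. The unadjusted edgeR p was under 0.05 for 0 that were higher and 2 that were lower, against 7% and 0.4% of all tested genes. The vit genes are closely related and may share reads.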
